A study of Mus musculus with 12 samples.

Results

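The genes described here are 10 imprinted genes: the growth gene Igf2 and the lncRNA H19 beside it, the 3 lncRNAs Meg3, Rian and Mirg, and the protein-coding genes Peg3, Plagl1, Grb10, Ndn and Snrpn. They were taken by symbol from the 55487 genes of the count table, where each of the 10 has 1 row. The rule asks for imprinted genes that control growth or mark neurons. It uses names and no measured value, although earlier results of these data were known. Liver and brain of 6 mice were profiled by total RNA sequencing, in 4 groups of 3 libraries: KO liver and KO brain from mice A, C and F, and WT liver and WT brain from mice B, D and E. KO mice lack Mettl5, the methyltransferase of 18S rRNA, in the whole body, through an allele with exon 2 disrupted that came from a conditional line crossed to a CMV-Cre deleter. The controls are labelled WT, although in places the study describes the controls of its sequencing as heterozygous. The line began in ES cells of a mixed strain background and was backcrossed to B6, and the labels give no age, sex, litter or batch. Liver and brain carrying the same letter come from the same animal.

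An imprinted gene is read mainly from the copy inherited from 1 parent, because DNA methylation laid down in egg or sperm marks the copies differently. Igf2 is a paternally expressed fetal growth factor, and the maternally expressed H19 shares its enhancers; both are abundant in fetal mouse liver and are switched off there after birth, while in the adult brain Igf2 is made mainly by choroid plexus and meninges. Meg3, Rian and Mirg are maternally expressed lncRNAs read in the same direction on chromosome 12, and the domain also carries many miRNA and snoRNA genes within or between them. Peg3 encodes a large zinc finger protein, Plagl1 a zinc finger transcription factor, Ndn the MAGE family protein necdin of postmitotic neurons and Snrpn the SmN protein of neuronal spliceosomes, all from the paternal copy. Grb10 encodes an adaptor that damps signalling of the insulin and IGF1 receptors and is maternal in most tissues and paternal in neurons. Counts per gene do not separate the parental copies, so levels here are sums over both.

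The promoters of Meg3 and Rian are shown because Meg3 opens the chromosome 12 domain and Rian, which follows it on the same strand, had a p under 0.05 in brain before adjustment, though not with a correction for GC content. Each window holds the 250 bases before and the 50 bases from the RefSeq start (GRCm38.p6), and capitals mark every CG pair, the base pair that carries DNA methylation and that reads the same on both strands. Meg3 has 2 such windows. The first, chr12:109540746-109541045 on the plus strand, is printed and holds 13 CG pairs, and 37.9% of all 32851 promoter windows of this length hold as many or more. The other, chr12:109545148-109545447, holds 1, and 94.6% of all windows hold as many or more. The Rian window, chr12:109603695-109603994 on the plus strand, holds 0, as do 5.43% of all windows. Among the 9 genes of the group that matched a window, the richest was a window of Grb10 with 45 CG pairs, a number reached by 1.93% of all windows.
Meg3: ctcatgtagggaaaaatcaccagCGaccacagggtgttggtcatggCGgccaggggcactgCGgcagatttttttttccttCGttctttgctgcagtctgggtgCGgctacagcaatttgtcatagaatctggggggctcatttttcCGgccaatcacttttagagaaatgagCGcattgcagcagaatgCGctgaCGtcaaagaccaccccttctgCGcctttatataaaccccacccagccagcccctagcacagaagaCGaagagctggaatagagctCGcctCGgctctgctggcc
Rian: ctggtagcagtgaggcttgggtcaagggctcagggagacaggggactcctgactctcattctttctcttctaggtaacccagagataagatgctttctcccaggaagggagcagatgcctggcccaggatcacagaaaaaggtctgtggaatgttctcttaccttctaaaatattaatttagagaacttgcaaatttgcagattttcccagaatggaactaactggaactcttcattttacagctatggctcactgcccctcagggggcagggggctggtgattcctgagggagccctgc

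The miRNAs within these transcripts are shown because the reads at their hairpin genes are part of the chromosome 12 result. The spans of H19, Igf2, Meg3, Rian and Mirg hold 39 RefSeq mature miRNAs of 21 hairpin genes, 13 of them wholly inside an exon, and these carry 38 different seeds. Capitals mark the seed, bases 2 to 8, which pairs with target mRNAs. The first pair below comes from an exon of H19, miR-770-5p from an exon of Meg3, miR-370-3p from the span of Rian, and the others from the span of Mirg. Of all 39, miR-453 and miR-496a-5p were the only pair with the same seed.
miR-675-5p: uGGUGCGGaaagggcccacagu
miR-675-3p: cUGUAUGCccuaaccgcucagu
miR-770-5p: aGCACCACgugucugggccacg
miR-370-3p: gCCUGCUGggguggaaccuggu
miR-134-5p: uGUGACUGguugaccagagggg
miR-485-3p: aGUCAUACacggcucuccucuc
miR-410-3p: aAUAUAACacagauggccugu
miR-453: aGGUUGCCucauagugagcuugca
miR-496a-5p: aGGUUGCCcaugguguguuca

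Library totals ran from 14403309 to 21623180 counts, and a value below is a CPM, the read count divided by the library size after TMM scaling over all 12 libraries. Mettl5, the targeted gene, was lower in every KO library than in every WT library of its tissue, at 4.64 to 5.23 CPM against 10.1 to 18.98 in liver and 2.61 to 3.12 against 3.96 to 7.13 in brain; its log2 fold changes were -1.44 (SE 0.27, edgeR adjusted p 0.383) and -0.84 (SE 0.27, edgeR adjusted p 0.373). Mice E and F, 1 mouse in each genotype, had 116 to 336 Y-linked counts a library, and the other mice had 2183 to 3445. The share of counts on the mitochondrial rRNA genes was lower in KO than in WT liver (7.36 to 8.66% against 10.7 to 16.9%) and higher in KO than in WT brain (21.4 to 31.6% against 7.63 to 17.7%). The 9 hepatocyte markers found in the table summed to at least 91450 CPM in every liver library and at most 32.8 CPM in every brain library, and the 12 neuron markers to at least 4059 CPM in every brain library and at most 28.0 CPM in every liver library, so the tissues match their labels.

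In WT mice all 10 genes had a higher mean in brain than in liver. Of these, H19, Igf2 and Mirg passed the filter on low counts through their brain libraries and not in liver, so the filter fixed their direction and their levels are given with no test. The other 7 passed it in each tissue, and 7 of 7 had an adjusted p under 0.1 as higher in brain (quasi-likelihood test of edgeR over 18944 genes, where 78.4% of all genes passed in either direction and 43.6% as higher in brain). Among the 12574 genes that passed the filter in each tissue these shares were 73.3% and 32.6%. The median log2 difference of the 7 was 6.13, beside -0.14 for those 12574 genes. The genes were picked in part because they mark neurons, so this direction was likely beforehand and says nothing of imprinted genes at large. Of the 24 other imprinted genes that passed the filter in each tissue, 13 were called higher in brain and 6 lower. Igf2 had 0 counts in the 3 WT liver libraries, so its level was at least 5.88-fold higher in WT brain, against 3 counts in each of those libraries, a limit that covers counting error only. H19 was at 0.760 ± 0.263 CPM in WT brain and 0.196 ± 0.115 CPM in WT liver, and Mirg at 18.7 ± 1.19 and 0.264 ± 0.0821 CPM (SD, n = 3). Of the 7, Meg3 differed most, at 1293 ± 296 CPM in WT brain and 1.96 ± 0.907 CPM in WT liver (SD, n = 3), a log2 difference of 9.38 (SE 0.42, edgeR adjusted p 9.59e-11). The log2 differences of the others were 7.93 for Rian, 6.77 for Ndn, 6.13 for Snrpn, 5.05 for Peg3, 2.99 for Plagl1 and 2.12 for Grb10. A whole tissue was sequenced in each case, so more cells of a type and more RNA per cell cannot be told apart.

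**Figure D1:**
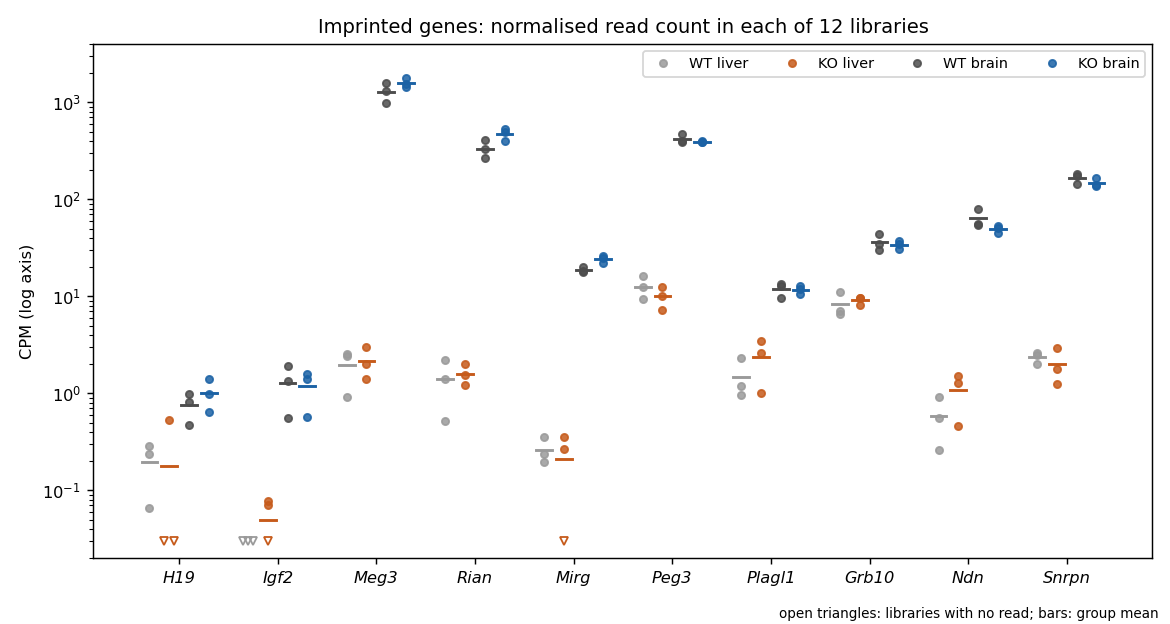
CPM on a log axis of each of the 10 genes in the 12 libraries, with 1 point for each library, coloured by group, a bar at each group mean and open triangles for libraries without a read of the gene. For every gene the mean is higher in WT brain than in WT liver, from Meg3 (1293 against 1.96 CPM on average) down to H19 (0.760 against 0.196 CPM).

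Levels between genes were compared per kilobase of exon that no other gene shares, as RPKM. In WT brain Snrpn was highest at 106 RPKM (90.7 to 116), then Meg3 at 72.6 (55.3 to 88.4), Peg3 at 30.8 (28.5 to 34.6), Ndn at 17.2 (14.7 to 21.7) and Rian at 10.8 (8.64 to 13.1). Grb10 followed at 3.98 RPKM (3.29 to 4.89), Mirg at 2.703 (2.58 to 2.90), Plagl1 at 1.53 (1.24 to 1.71), Igf2 at 0.598 (0.262 to 0.898) and H19 at 0.320 (0.1999 to 0.419). Neighbours in this order did not overlap between libraries, except Igf2 and H19. In KO brain the order differed in 1 place, since Rian at 15.4 RPKM (12.9 to 17.2) stood above Ndn at 13.5 (12.2 to 14.4), and 4 pairs of neighbours overlapped: Snrpn and Meg3, Rian and Ndn, Grb10 and Mirg, Igf2 and H19. In WT liver Snrpn led at 1.52 RPKM (1.29 to 1.68), Peg3 at 0.929 (0.685 to 1.18) and Grb10 at 0.916 (0.728 to 1.23) overlapped each other, and the other 7 genes averaged 0.191 RPKM or less. In KO liver Snrpn at 1.27 RPKM (0.787 to 1.88), Grb10 at 1.005 (0.892 to 1.06) and Peg3 at 0.735 (0.530 to 0.925) overlapped as neighbours, and the others averaged 0.303 RPKM or less. The unshared length matters most for Igf2, where 62.8% of exon bases are shared with Gm49394, and for Snrpn, where 27.3% are shared with Snurf and Gm38393, because a read on exons of more than 1 gene is counted for none of them by default.

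In brain, KO was compared with WT to ask whether these genes differ when Mettl5 is lost. None of the 10 passed an adjusted p under 0.1 (quasi-likelihood test of edgeR over 17188 genes), where 0.064% of all genes passed. DESeq2 also called 0 of the 10, where it called 1.52% of all genes. With edgeR 2 of 10, Rian and Mirg, had an unadjusted p under 0.05, both higher in KO, where 11% of all genes had such a p. The libraries of the genotypes did not overlap for 2 of 10, Mirg and Ndn, where 16.4% of all genes did not overlap. By the fold change 4 genes were higher and 6 lower in KO, and the median of their log2 fold changes was -0.05, beside -0.0016 for all genes.

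The 3 lncRNAs of chromosome 12 had higher means in KO than in WT brain, with none of them called. Meg3 (chr12:109541001-109571726, plus strand) was at 1575, 984 and 1319 CPM in the WT brains of mice B, D and E and at 1561, 1449 and 1766 CPM in the KO brains of mice A, C and F. The genotypes overlapped, since the WT brain of mouse B lay above 2 of the KO brains, and the log2 fold change was 0.30 (95% interval -0.13 to 0.74, edgeR adjusted p 0.563). Rian (chr12:109603808-109661716, plus strand), a host of C/D snoRNAs, was at 406, 267 and 330 CPM in WT and at 500, 398 and 532 CPM in KO. Only the WT brain of mouse B reached into the KO range, just above the KO brain of mouse C. The log2 fold change of Rian was 0.52 (SE 0.19, p 0.0219, edgeR adjusted p 0.395), with a 95% interval from 0.09 to 0.94. Mirg (chr12:109729764-109749460, plus strand), whose exons hold miRNA hairpins, was at 20.1, 18.2 and 17.9 CPM in WT and at 26.2, 22.2 and 25.2 CPM in KO. All KO brains lay above all WT brains, with a log2 fold change of 0.40 (SE 0.14, p 0.0182, edgeR adjusted p 0.394) and a 95% interval from 0.08 to 0.71.

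The miRNA and snoRNA genes from the start of Meg3 to the end of Mirg were summed after the values of the lncRNAs had been seen. Of the 59 miRNA genes 50 had a count in any library, and of the 23 snoRNA genes 9. The 59 miRNA genes together were at 19.4, 14.3 and 19.1 CPM in the WT brains of mice B, D and E and at 26.0, 24.0 and 27.4 CPM in the KO brains of mice A, C and F. The 23 snoRNA genes together were at 4.5, 2.55 and 3.72 CPM in WT and at 9.82, 4.54 and 6.48 CPM in KO. Neither sum overlapped between the genotypes, where 16.4% of all single genes did not overlap. For the snoRNA genes the KO brain of mouse C lay only just above the WT brain of mouse B. These libraries held 80 and 89 snoRNA counts of 14403309 and 15078611 in total, so their order rests on the TMM scaling. Means were 17.6 ± 2.85 CPM in WT and 25.8 ± 1.69 CPM in KO for the miRNA genes and 3.59 ± 0.983 CPM and 6.95 ± 2.67 CPM for the snoRNA genes (SD, n = 3), and the two-sided exact permutation p was 0.1 for each, the smallest that 3 against 3 libraries allow. Liver held 4 reads of the miRNA genes and 2 of the snoRNA genes in all 6 libraries. Such reads may come from precursor or host transcripts, and these libraries do not measure mature miRNAs such as those printed above.

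**Figure D2:**
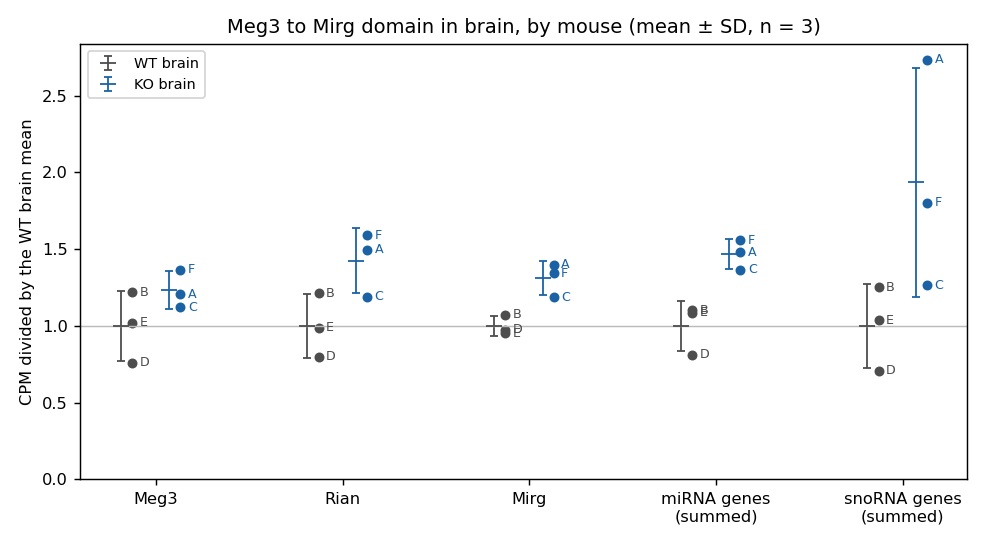
Brain CPM of Meg3, Rian and Mirg, and summed brain CPM of the miRNA and snoRNA genes between them, each divided by its WT brain mean (linear axis from 0), with 1 lettered point for each mouse and the mean ± SD of each genotype (n = 3). The KO points lie above all WT points for Mirg and for both sums, while mouse B of the WT group reaches into the KO range for Meg3 and Rian.

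Ratios of counts within a library do not depend on the library size, and they too were formed after the values had been seen. Rian had 0.258, 0.271 and 0.250 reads per read of Meg3 in the WT brains of mice B, D and E and 0.320, 0.275 and 0.301 in the KO brains of mice A, C and F, without overlap (two-sided exact permutation p 0.1). The ratios of Mirg to Meg3, at 0.0149 ± 0.00313 in WT and 0.0155 ± 0.00127 in KO, and of Rian to Mirg, at 17.8 ± 2.85 and 19.4 ± 1.64 (SD, n = 3), overlapped between the genotypes. Rian has the lowest GC content of the 10 genes, 35.8% in its longest annotated transcript, and with a correction for each library's trend of counts on GC its log2 fold change was 0.09 (edgeR adjusted p 0.778), while Mirg at 51.9% GC and Meg3 at 49.2% GC gave 0.49 and 0.33.

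Of the 10 genes, Ndn, Snrpn and Peg3, paternally expressed genes of chromosome 7 with many reads in brain, had lower means in KO than in WT brain, with none of them called. Ndn (chr7:62346569-62350262, plus strand, 1 exon) was at 56.3, 80.0 and 54.3 CPM in the WT brains of mice B, D and E and at 51.1, 53.2 and 45.0 CPM in the KO brains of mice A, C and F. All KO brains lay below all WT brains, by a narrow gap apart from the WT brain of mouse D, and the log2 fold change was -0.35 (SE 0.17, p 0.0678, edgeR adjusted p 0.471), or -0.16 without mouse D. Snrpn (chr7:59982495-60140219, minus strand) was at 176, 183 and 142 CPM in WT and at 165, 140 and 138 CPM in KO. These overlapped, with a log2 fold change of -0.17 (95% interval -0.50 to 0.16, edgeR adjusted p 0.656), or -0.11 without mouse D. Reads of Ndn per read of Snrpn overlapped between the genotypes, at 0.380 ± 0.0589 in WT and 0.339 ± 0.0376 in KO (SD, n = 3). Peg3 (chr7:6703892-6730431, minus strand) was at 388, 471 and 400 CPM in WT and at 390, 397 and 387 CPM in KO, so that the KO brains lay at the low end of the WT range. Its log2 fold change was -0.10 (95% interval -0.40 to 0.21, edgeR adjusted p 0.791), or -0.014 without mouse D.

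Plagl1 and Grb10, a transcription factor and a signalling adaptor, overlapped between the genotypes in brain. Plagl1 (chr10:13060504-13131694, plus strand) was at 9.66, 12.8 and 13.4 CPM in WT and at 10.5, 12.8 and 11.9 CPM in KO, a log2 fold change of -0.02 (95% interval -0.41 to 0.37). Grb10 (chr11:11930508-12038683, minus strand) was at 34.3, 44.4 and 29.9 CPM in WT and at 34.4, 30.5 and 37.1 CPM in KO, a log2 fold change of -0.09 (95% interval -0.46 to 0.29). The sign turned without mouse A, D or E for Plagl1 and without mouse D for Grb10.

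Igf2 and H19 were rare in brain, so their intervals are wide. Igf2 (chr7:142650766-142666816, minus strand) had 11, 48 and 34 counts in the WT brains of mice B, D and E, or 0.556, 1.91 and 1.35 CPM, and 9, 28 and 27 counts in the KO brains of mice A, C and F, or 0.574, 1.59 and 1.398 CPM. Each genotype thus held 1 low brain, and the log2 fold change was -0.10 (95% interval -1.25 to 1.05, edgeR adjusted p 0.953). H19 (chr7:142575529-142578143, minus strand) had 16, 25 and 12 counts in WT and 10, 25 and 19 counts in KO, a log2 fold change of 0.43 (95% interval -0.60 to 1.45, edgeR adjusted p 0.714) that ran from 0.11 to 0.67 with 1 mouse left out.

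**Figure D3:**
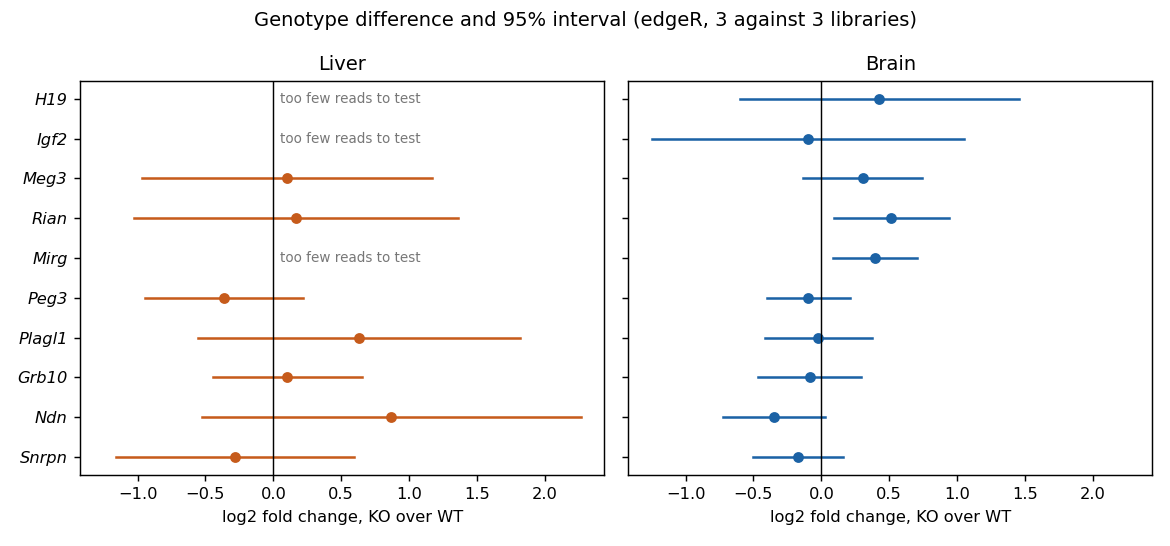
Log2 fold changes of KO over WT with 95% intervals (edgeR, 3 against 3 libraries) for the 10 genes in liver and in brain; a note stands where too few reads passed the filter. In brain the intervals of Rian (0.09 to 0.94) and Mirg (0.08 to 0.71) lie above 0, and every other interval in either tissue spans 0.

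Markers of brain regions differed between the same libraries, and their part in the values above was not tested. The 10 olfactory bulb markers summed to 18.7 to 28.7 CPM in WT brains and to 71.2 to 98.2 CPM in KO brains, and 7 of the 10 passed an adjusted p under 0.1 as higher in KO (edgeR), where 0.064% of all genes passed in either direction. Over the alternatives that count ran from 2 to 9, with 2 without mouse E, 3 without mouse B, 3 without mouse F and 4 without mouse D. Of these markers Omp, a protein of olfactory sensory neurons, differed by 3.70 on the log2 scale (SE 0.32, edgeR adjusted p 0.00674). The 10 cerebellum markers summed to 874 to 1352 CPM in WT and to 211 to 583 CPM in KO, with all 10 lower and 0 called (9 at an unadjusted p under 0.05, where 11% of all genes had such a p). Choroid plexus is, with the meninges, a main source of Igf2 in adult brain. Its 15 markers summed to 210 to 342 CPM in WT and to 106 to 162 CPM in KO, with all 15 lower and 0 called (9 at an unadjusted p under 0.05, beside the same 11%). The cerebellum and choroid plexus counts depended on the test as well. With DESeq2, which called 1.52% of all genes, 4 cerebellum and 5 choroid plexus markers were called, and with no filter on low counts, where 3.15% of all genes were called, 4 and 7, all lower in KO. Of the 12 hypothalamus markers 10 were tested, all 10 higher in KO, with 0 called and a median log2 fold change of 0.37; Trh (1.04) and Gal (0.99), 2 of the 10, did not overlap between the genotypes, where 16.4% of all genes did not, and Trh was called with no filter on low counts. The sum over the list overlapped, at 15.5 to 38.5 CPM in WT and 23.1 to 47.6 CPM in KO. The sums overlapped too for the 12 markers of meninges and fibroblasts, at 46.1 to 64.99 CPM and 48.5 to 65.1 CPM, and for the 12 neuron markers, at 4059 to 4854 CPM and 4174 to 4640 CPM. Of the neuron markers 5 were higher and 7 lower in KO, with 0 called, a median log2 fold change of -0.08 and 2 lower at an unadjusted p under 0.05, beside 11% of all genes. The first 3 of the list, Rbfox3, which encodes NeuN, Snap25 and Syt1, had -0.53, -0.02 and 0.10, and Rbfox3 was called with no filter on low counts. The genotypes did not overlap for 2 of the 12, Stmn2 at -0.38 and the synaptic vesicle protein gene Syp at -0.32, where 16.4% of all genes did not overlap. Every marker of these lists had reads in at least 1 brain library.

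**Figure D4:**
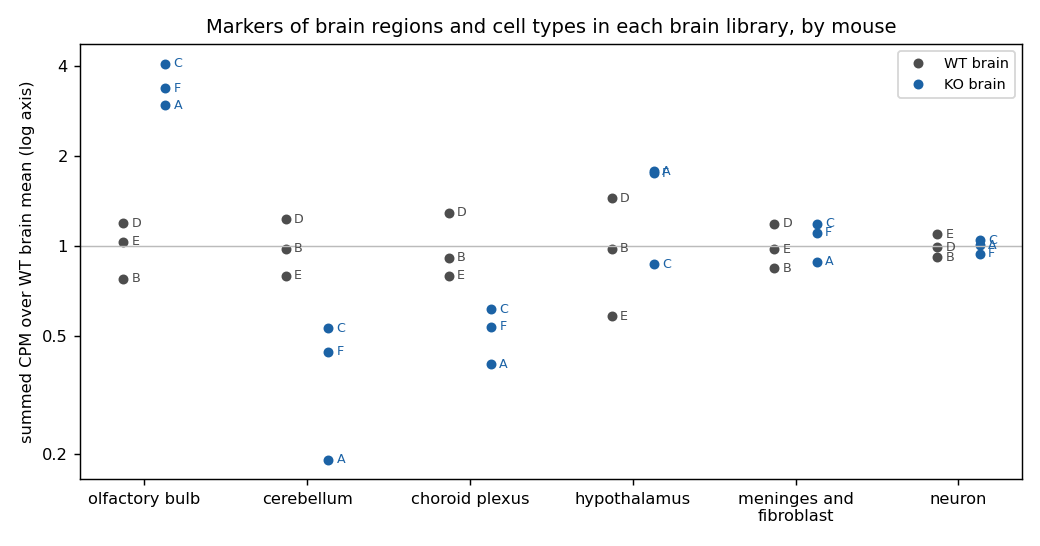
Summed brain CPM of the marker lists divided by the WT brain mean of each list (log axis), with 1 lettered point for each mouse. KO points lie above all WT points for the olfactory bulb and below them for the cerebellum and choroid plexus, and the genotypes overlap for the other lists.

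Mitochondrial rRNA took a higher share of the KO brain libraries, and with the mitochondrial genes left out the log2 fold changes were 0.52 for Rian, 0.40 for Mirg and 0.31 for Meg3. Leaving out 1 mouse at a time gave 0.37 to 0.69 for Rian, 0.34 to 0.46 for Mirg and 0.13 to 0.48 for Meg3, with the lowest values of Rian and Meg3 without mouse D of the WT group. Across the alternatives, adjusted p-values lay between 0.0768 and 0.943 for Rian and between 0.1996 and 0.934 for Mirg (edgeR and DESeq2), and Rian passed the threshold in 1 of 14 alternatives, the fit with no filter on low counts, which called 3.15% of all genes.

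**Figure D5:**
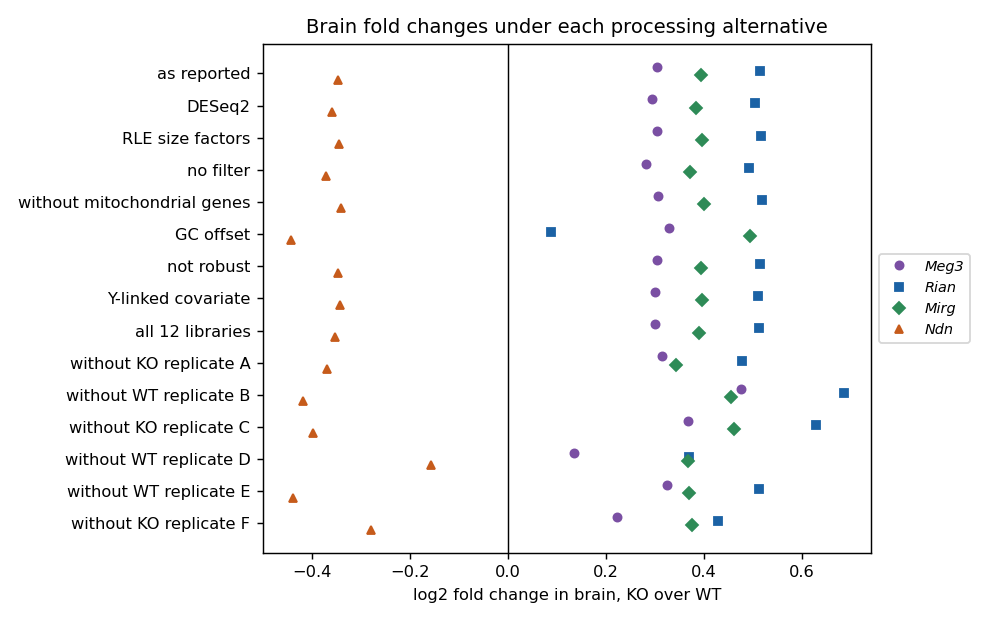
Log2 fold changes of KO over WT brain for Meg3, Rian, Mirg and Ndn as reported and under each of 14 alternatives, 1 line for each setting. Meg3, Rian and Mirg stay above 0 and Ndn below 0 throughout, and the square of Rian moves from 0.52 to 0.09 with the GC correction.

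In liver, KO and WT were compared in the same way, and the reads set a limit: H19, Igf2 and Mirg had too few to be tested, so 7 of 10 were tested. None of the 7 passed an adjusted p under 0.1 (quasi-likelihood test of edgeR over 14075 genes, of which 0% passed). DESeq2 also called 0 of 7, where it called 1.13% of all genes. None of the 7 had an unadjusted p under 0.05 with edgeR, where 7.33% of all genes did, and none had libraries that did not overlap, where 13.2% did. Igf2 had 0 counts in the 3 WT livers and 1, 1 and 0 in the KO livers of mice A, C and F, so it was at the floor of 3 counts in every liver, which stands for 0.196 to 0.239 CPM. H19 had 1, 3 and 4 counts in the WT livers of mice B, D and E and 0, 0 and 8 in the KO livers of mice A, C and F, and Mirg had at most 5 in any liver. A difference in these 3 genes was not detectable at this depth.

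The genes with the most liver reads were Peg3 and Grb10. Peg3 was at 16.0, 9.33 and 12.6 CPM in the WT livers of mice B, D and E and at 10.2, 7.22 and 12.6 CPM in the KO livers of mice A, C and F, a log2 fold change of -0.37 (95% interval -0.95 to 0.21, edgeR adjusted p 0.832). Grb10, which acts on the insulin receptor of liver cells, was at 7.13, 6.62 and 11.2 CPM in WT and at 9.65, 9.65 and 8.11 CPM in KO, a log2 fold change of 0.10 (95% interval -0.44 to 0.65, edgeR adjusted p 0.968). Both overlapped between the genotypes. Snrpn had a log2 fold change of -0.28 (95% interval -1.16 to 0.60), Plagl1 of 0.63 (-0.56 to 1.82), Rian of 0.17 (-1.02 to 1.36) and Meg3 of 0.10 (-0.97 to 1.17). With 1 mouse left out at a time these ran from -0.67 to -0.034 for Snrpn, from 0.24 to 1.11 for Plagl1 and, for Peg3, from -0.57 to -0.17. Ndn had 4, 7 and 13 counts in WT and 6, 21 and 19 in KO, a log2 fold change of 0.87 (95% interval -0.53 to 2.26, edgeR adjusted p 0.835) that ran from 0.50 to 1.39 with 1 mouse left out.

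Whether the genotype difference itself differed between the tissues was tested over all 12 libraries. Of the 7 genes with enough reads in each tissue, 0 had an adjusted p under 0.1 (edgeR over 18944 genes, of which 0% passed). DESeq2 also called 0 of the 7, where it called 367 of the 34388 genes with a p-value. No value is given for H19, Igf2 and Mirg, which passed the filter through brain only. With edgeR 1 gene, Ndn, had an unadjusted p under 0.05, where 10.6% of all genes had such a p. The liver effect of Ndn minus its brain effect was 1.27 on the log2 scale (SE 0.52, p 0.0290, edgeR adjusted p 0.419), with liver values that rest on 4 to 21 counts a library. For Rian the difference was -0.30 (95% interval -1.34 to 0.74) and for Meg3 -0.16 (-1.17 to 0.84), and both intervals span 0.

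A list of 51 other imprinted genes was counted beside the 10. In brain 39 were tested, 22 higher and 17 lower in KO, with 0 called and 0.04 as the median of the log2 fold changes (edgeR; 0.064% of all genes were). With no filter on low counts, which called 3.15% of all genes, Usp29, Magel2 and Trappc9 were called. Of the 39, 2 higher and 2 lower had an unadjusted p under 0.05, or 4 of 39, where 11% of all genes had one. The higher pair were Usp29, which lies beside Peg3, at 0.55 (SE 0.16, edgeR adjusted p 0.355), and Magel2, which lies beside Ndn, at 1.09 (SE 0.39, edgeR adjusted p 0.394). Usp29 was at 58.6, 44.2 and 47.0 CPM in the WT brains of mice B, D and E and at 85.7, 65.2 and 68.5 CPM in the KO brains of mice A, C and F. The lower pair were Cdkn1c, an inhibitor of cyclin-dependent kinases, at -0.52 (SE 0.20, edgeR adjusted p 0.411), and the lncRNA Peg13 at -0.42 (SE 0.19, edgeR adjusted p 0.455). Trappc9, the host gene of Peg13, had the next smallest p, at -0.48 (edgeR adjusted p 0.464). Dlk1 and Rtl1, the paternally expressed neighbours of Meg3, were looked at after the lncRNA values had been seen, and their brain log2 fold changes were 0.04 (SE 0.44) and 0.08 (SE 0.33). In liver 27 of the 51 were tested, with 0 called (Kcnq1ot1 with no filter, where 1.63% of all genes were) and 0 at an unadjusted p under 0.05, and the smallest p belonged to Sgce, Kcnq1ot1, Phactr2, Peg10 and Airn, with log2 fold changes of -0.59, -0.60, 0.30, -1.63 and -0.66. In WT mice, of the 24 that passed the filter in each tissue, 13 were called higher in brain and 6 lower, where 32.6% of such genes were called higher and 73.3% in either direction.

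The receptors, binding proteins and mRNA-binding proteins of IGF2 form a list of 13 genes. In liver 10 were tested and 0 called, beside 0% of all genes, and 3 had an unadjusted p under 0.05, all higher in KO. Of all genes, 7.33% had such a p. Igfbp2, a circulating IGF-binding protein made by hepatocytes, was at 328, 218 and 406 CPM in the WT livers of mice B, D and E and at 680, 691 and 815 CPM in the KO livers of mice A, C and F. These did not overlap, and KO was higher by 1.17 on the log2 scale (SE 0.22, edgeR adjusted p 0.383). Igfbp1, a binding protein induced by fasting, differed by 1.59 (SE 0.46, edgeR adjusted p 0.497) and the receptor Igf1r by 0.52 (SE 0.21, edgeR adjusted p 0.629), also without overlap, so that 3 of 10 did not overlap, where 13.2% of all genes did not. Igfbp2 passed the threshold with DESeq2, with no filter on low counts and with the Y-linked covariate, and Igfbp1 with DESeq2, where 1.13%, 1.63% and 0.583% of all genes passed under those settings in turn. Igfbp5 and Igf2bp2, next by p, had -0.66 and -0.56. In brain 9 were tested, with 2 higher, 7 lower, 0 called and 0 at an unadjusted p under 0.05. The smallest p belonged to Igf2r, Igf2bp2, Igfbp5, Igf1r and Igfbp4, with log2 fold changes of -0.37, 0.89, -0.42, -0.26 and 0.18. The list of 10 genes of perinatal liver, which includes Afp and Gpc3, held 6 tested in liver, 2 higher and 4 lower, with 0 called. The 10 genes summed to 17.0 to 22.5 CPM in WT livers and to 9.93 to 16.4 CPM in KO livers, without overlap. Of these sums Peg10 made up 12.9, 6.855 and 0.781 CPM in the WT livers of mice B, D and E. In the KO livers of mice A, C and F it made up 4.94, 1.357 and 0.536 CPM, which overlapped. Without Peg10 the sums of the other genes overlap too. Cd24a was the only 1 of the 6 that did not overlap, where 13.2% of all genes did not.

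Genes whose log2 CPM ran most like a member over the 6 libraries of a tissue were picked by Pearson's r among all genes tested. For Meg3 in brain they were Tet2 (r 0.999), Gm45634 (0.997), Gm9916 (0.996), Gm6030 (0.995) and Nvl (0.995). Of the group itself, Rian ran with Meg3 (r 0.943) and so did Mirg (0.732), while Peg3 (-0.944) and Ndn (-0.941) ran against it. For Igf2 in brain they were Hdac6 (0.995), Bmp2k (0.988), Loxl1 (0.985) and Vcl (0.985), and of the group Plagl1 came closest (0.909). For H19 in liver they were Gcnt1 (0.997), Entpd1 (0.993), Itgal (0.990), Vav1 (0.989) and Cyth4 (0.986), on at most 8 H19 counts a library, so that this likeness is a weak description. These values are maxima over all genes tested in 6 libraries that also share their genotype, depth and regional make-up, and they are given without a test.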

How the data were processed

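RNA was measured in 12 libraries, liver and brain of 3 KO and 3 WT mice, grouped by the deposited labels. The authors made stranded total RNA libraries, trimmed reads with Trimmomatic, aligned them to mm10 with STAR 2.7.3a and counted reads on exons by gene with featureCounts in reverse-stranded mode (versions and tools from the submitters' processing notes and the study's methods). The deposited table holds raw counts per gene, not normalised. Library totals ran from 14403309 to 21623180 counts. The table has 55487 genes, of which 55141 matched a symbol, and positions are mm10; all 54349 versioned identifiers found in GENCODE M21 had its start and end.

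The tests were made in edgeR 4.0.16 under R 4.3.3 (TMM, filterByExpr, robust quasi-likelihood F test, Benjamini-Hochberg over all genes tested, call at an adjusted p under 0.1), in each tissue for KO against WT and over all 12 libraries for the tissue contrasts. The code was also run on simulated counts with known changes and a set spread between replicates. That run does not measure the power of the tests in these libraries. DESeq2 1.42.0 was an alternative, and the authors used DESeq2 per tissue. Alternatives were RLE size factors, no filter on low counts, no mitochondrial genes, a GC offset, no robust option, a Y-linked covariate, all 12 libraries in 1 fit, mouse as a block and leaving out each mouse. CPM use 1 set of TMM factors over the 12 libraries; RPKM divide CPM by the kilobases of exon not shared with another gene. Promoter and miRNA sequences are from RefSeq on GRCm38.p6.

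The labels pair liver and brain by mouse. Pearson's r of the paired libraries, as deviations from group means, lay between -0.0387 (mouse B) and 0.141 (mouse F) over 12574 genes. Pairs of replicate libraries differed by more than counting noise (chi-square per degree of freedom at least 19.8). Replicates are separate mice by their letters. The genes described, the gene lists and the tests were chosen with earlier results of these data known. Named genes are the 10 described, Mettl5, of the list of other imprinted genes and the IGF2 list any called and the 5 with the smallest p in each tissue, the first genes of a marker list, and the 5 most like Igf2, Meg3 and H19 by Pearson's r, of which 1 is not reported here. Dlk1, Rtl1, Stmn2, Syp, Trh, Gal and Cd24a fall outside this rule and were named after their values were seen.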

Additional observations from a re-analysis of the deposited data

How the results depend on the processing

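Of the 7 genes tested in each tissue, the count called was 0 in liver, 0 in the difference between tissues and 7 in WT brain against WT liver under every alternative run. In liver the alternatives called from 0 of 14075 genes (RLE size factors) to 443 of 27130 (no filter). In the difference between tissues they called from 0 of 18944 (GC offset) to 367 of 34388 (DESeq2). In WT brain against WT liver they called from 14040 of 19479 (without mouse B) to 16611 of 34441 (no filter). A count of 0 says little where a fit called 0 of all genes. In brain, of 10, the count called was 0, and 1 (Rian) with no filter on low counts. That fit called 1000 of all 31780 genes (3.15%) against 11 of 17188 in the reported one. The cause was not tested. With mouse as a replicate block, which pairs liver and brain of an animal, the counts were 0 for the difference between tissues and 7 for WT brain against WT liver, the difference of Ndn was 1.23 on the log2 scale, and no call changed. The direction turned with the GC offset for Igf2 in brain (0.077) and, in the difference between tissues, for Rian (0.32) and Snrpn (0.044), none of them called. Leaving out 1 mouse at a time turned the direction of uncalled log2 fold changes as follows. In liver the range was -0.25 to 0.34 for Meg3, -0.24 to 0.68 for Rian and -0.028 to 0.38 for Grb10. In brain it was -0.43 to 0.30 for Igf2, -0.14 to 0.079 for Plagl1 and -0.20 to 0.079 for Grb10. In the difference between tissues it was -0.68 to 0.23 for Meg3, -0.87 to 0.34 for Rian, -0.50 to 0.029 for Peg3, -0.085 to 0.62 for Grb10 and -0.51 to 0.27 for Snrpn. CPM without TMM scaling moved by more than 1 SD in 19 of 40 gene and group means. Depth limits H19, Igf2 and Mirg in liver and H19 and Igf2 in brain.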
